A study of Danio rerio with 7 samples.

Results

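The 177 most abundant clusters of zebrafish tail fin RNA were described across the control and the cut edges of the fin. A cluster is a feature of the deposited table, and 177 of 433380 clusters had a mean of at least 1000 FPKM, that is, fragments per kilobase of its length relative to all fragments of a library, over the 7 libraries. That mean chose them, so their high level is a description and carries no test. All 177 also passed the minimum mean FPKM of 1 that left 122784 clusters for the tests.

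Gene expression was measured by RNA sequencing in 7 libraries of tail fin tissue. The control library carries neither an edge nor a time in its labels, and the labels do not say whether that fin was cut. The other 6 libraries came from 1 of the edges of a cut fin, the anterior (ACE) or the posterior (PCE), each at 24, 48 and 72 h post amputation. Where 3 values of an edge are given as a series below, they are in that order of time. Each group held 1 library, the sources used here give neither strain, age nor the number of fish behind a library, and no drug or genetic change is named in the labels.

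After amputation, a fin is closed by a wound epidermis, and a blastema of proliferating cells then forms beneath it and rebuilds the lost bone, connective tissue and skin. Calcineurin, a calcium-dependent protein phosphatase that the study's title names, is known in zebrafish for its part in setting how much fin regrows. In most tissues a small set of RNAs, such as those for ribosomal proteins, cytoskeletal and extracellular proteins and mitochondrial genes, makes up much of the RNA pool, so a share of that pool can move when only a few RNAs do.

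Which genes the 177 clusters stand for could not be read. The table pairs no identifier with a gene name, and 0 of the identifiers were found in the zebrafish reference tables. Gene lists, tissue markers and cell type markers were therefore not applied, the labelled tissue was not checked against markers, and no sequence is shown. Copies of nearly the same transcript may be listed as separate clusters, which makes the level of any 1 cluster uncertain.

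The PCE 24 h library stood apart from the others. It had the highest total, 3010857 FPKM against 1748110 in ACE at 72 h, the lowest. Of the 122784 tested clusters, 33.5% had their highest value in it, and each of the other libraries had the highest value of 8.87% to 14.6%. The number of fragments per library is not given in the table, so depth is unknown and no counting error could be set beside a value. Because deposited values are relative to a library's whole pool, results are also given on values divided by a median-of-ratios size factor. These factors, computed over the 27986 clusters above 0 in every library, were 0.986 for the control, 1.14, 1.25 and 1.23 over the ACE series and 0.967, 1.07 and 0.755 over the PCE series.

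The 177 clusters held about as much of the RNA pool at the anterior edge as in the control, and between PCE libraries their share varied more. They made up 51.0% of total FPKM in the control. In ACE they made up 55.5% at 24 h, 52.8% at 48 h and 50.0% at 72 h. In PCE they made up 36.9% at 24 h, 58.7% at 48 h and 63.2% at 72 h. The PCE share was thus 18.6 percentage points below that of ACE at 24 h (-18.6), 5.87 points above it at 48 h and 13.2 points above it at 72 h. The means were 52.8% ± 2.75 for ACE and 52.9% ± 14.0 for PCE (SD over 3 libraries of different times). Each SD holds the differences between times and is no error for a comparison of the edges. The near-equal means also hide edge differences of opposite sign, at 24 h and at the later times.

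**Figure D1:**
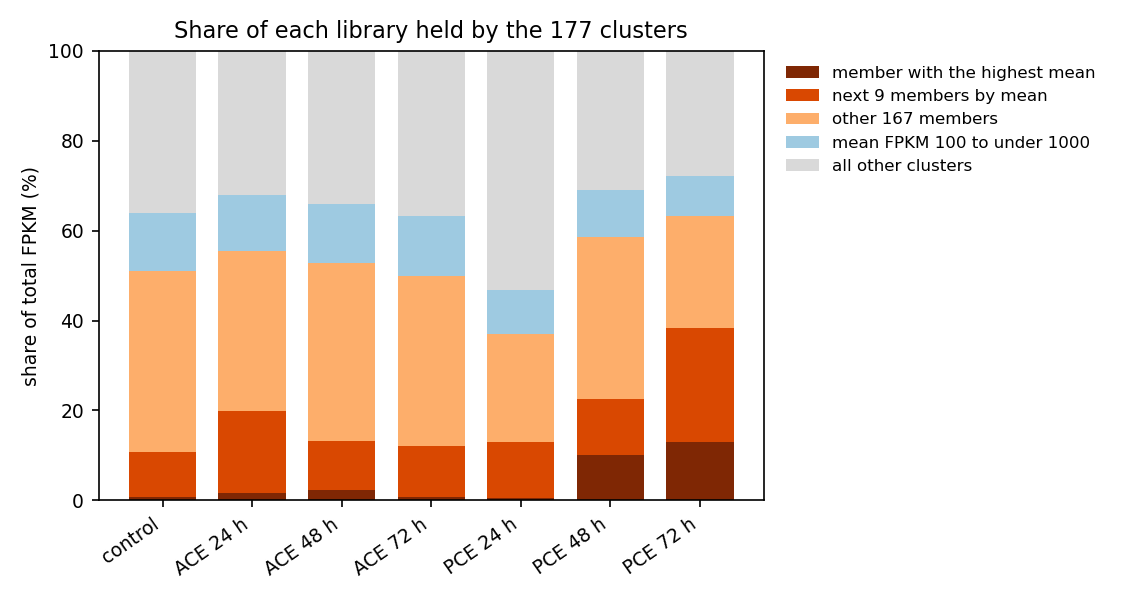
Stacked bars give the share of total FPKM (%, y axis) in each of the 7 libraries (x axis) held by the member with the highest mean, by the next 9 members, by the other 167 members, by clusters with a mean FPKM of 100 to under 1000, and by all others. The 177 members (the 3 orange and brown parts) hold 36.9% of PCE at 24 h and 63.2% of PCE at 72 h, where the first 10 alone hold 38.2%.

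The low share in PCE at 24 h was found with the whole table as the total and not with a narrower one. When the total was taken over the 27986 clusters above 0 in every library, the share was 64.2% in the control, 67.5%, 62.9% and 61.4% over the ACE series and 67.9%, 72.4% and 76.6% over the PCE series. On that total PCE was above ACE at 48 and 72 h and within 1 point of it at 24 h. A median member stood at 3293 FPKM in PCE at 24 h, against 3249 in ACE at 24 h and 3211 in the control. The summed FPKM of clusters outside the 177 and below a mean of 100 made up 53.1% of PCE at 24 h and 27.8% to 36.8% of the other libraries. In bulk tissue, fewer cells of a type and less RNA per cell cannot be told apart in any of these shares.

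At the posterior edge, the pool was concentrated in very few clusters at 72 h. The 10 members with the highest means held 10.8% of the control, 19.9%, 13.3% and 12.1% of the ACE series and 12.9%, 22.6% and 38.2% of the PCE series. These 10 were ranked on the mean of the same 7 libraries, which favours libraries where single clusters were extreme. The counts that follow rank clusters within each library. Counted from the largest member down, 50% of the members' FPKM was reached with 26 members in the control, with 17, 22 and 28 in ACE and with 18, 14 and 5 in PCE. Over the whole table, 50% of total FPKM took 132 clusters in the control, 99, 129 and 167 in ACE, and 1188, 74 and 29 in PCE. Over the whole table PCE thus held the most even library, at 24 h, and the most concentrated, at 72 h. Within the 177 members PCE at 72 h was again the most concentrated, but the most even was ACE at 72 h.

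The member with the highest mean, Cluster-118330.128325, carried a good part of the late posterior share. Its level was 11561 FPKM in the control, 32500, 44130 and 13912 FPKM over the ACE series and 17957, 259640 and 280779 FPKM over the PCE series. PCE at 48 and 72 h stood far above every other library, and PCE at 24 h was below ACE at 24 h. It alone made up 0.641% of the control, 1.57%, 2.29% and 0.796% of ACE and 0.596%, 10.1% and 13.0% of PCE. With it left out of members and total alike, the members' share was 50.7% in the control, 54.8%, 51.7% and 49.6% in ACE, and 36.5%, 54.0% and 57.7% in PCE, so PCE still held the higher share at 48 and 72 h.

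Cluster-118330.128789 had the next highest mean. It stood at 18082 FPKM in the control, 35614, 20450 and 18580 FPKM over the ACE series and 61688, 28805 and 120561 FPKM over the PCE series. PCE was above ACE at each time, and within each edge 48 h was below 24 h.

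The less abundant clusters did not follow the members' share. The 1015 clusters with a mean of 100 to under 1000 FPKM held 12.9% of the control, 12.3%, 13.1% and 13.2% of ACE, and 9.94%, 10.5% and 8.95% of PCE. In each pair of libraries of 1 time, PCE was below ACE. Shares of a library have 1 total, so a larger share of the members by itself lowers that of other clusters.

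Most members were abundant throughout. Of the 177, 103 reached 1000 FPKM in all 7 libraries, 60 in 4 to 6 of them and 14 in 1 to 3. Between 135 members (PCE at 72 h) and 163 (PCE at 48 h) reached 1000 FPKM in a single library, and between 140 (control) and 159 (ACE at 48 h) were among that library's own 177 most abundant clusters. The median member had a mean of 3173 FPKM, and 28 members had a mean of at least 10000.

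Next to the threshold, inside stood Cluster-118330.128552 with a mean of 1003 FPKM, at 1336 FPKM in the control, 520, 976 and 1140 over the ACE series and 1122, 1315 and 614 over the PCE series. Outside stood Cluster-118330.131594 with a mean of 995 FPKM, at 1404 FPKM in the control, 992, 1259 and 1131 over the ACE series and 673, 1111 and 396 over the PCE series. Both had their lowest PCE value at 72 h and a control value above their mean.

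A larger share of members than of other clusters stayed within 2-fold over the libraries. In 19 of 177 members (10.7%) the highest value was within 2-fold of the lowest, against 0.696% of the tested clusters and 2.46% of the clusters with a mean of 100 to under 1000 FPKM. On scaled values 47 members lay within 2-fold, against 1.12% of the tested clusters. A high mean over all libraries favours clusters present in each of them. Of members, 97.7% were above 0 in every library, against 86.9% of the next most abundant set and 20.9% of the tested clusters. Counting error, unknown here, also weighs more on clusters of low FPKM, so these sets are not compared on equal terms. The median member had a highest value 3.30 times its lowest (2.78 times on scaled values), and 35 members differed by more than 10-fold. That count takes in the members at 0 in a library, and the share of tested clusters past 10-fold was not computed.

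A few members owed their place to 1 or a few libraries. In 8 members a single library held over 50% of the summed FPKM, and in 5 of these it was the control. How many of all tested clusters met this rule was not counted. Among all members 4, chosen for mention after their values were seen, were at 0 in a library. One of them, Cluster-118330.113308, stood at 136 FPKM in the control, 0, 33957 and 6878 FPKM over the ACE series and 22091, 6883 and 189 FPKM over the PCE series. Cluster-118330.170096 was at 0 in the control, 1113, 5741 and 522 FPKM over the ACE series and 114, 17541 and 2505 FPKM over the PCE series. The other two, Cluster-118330.124936 and Cluster-118330.122426, are described with the comparisons that named them. An exact 0 in a table without counts can be a failed estimate, so no fold is given against these values. No single library decided membership for many clusters, since leaving out each library in turn kept 167 to 176 of the 177 above the mean of 1000 FPKM.

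Which library was highest and which lowest depended on the scaling. On deposited values 59 members were highest in the control, 27, 8 and 10 over the ACE series and 15, 44 and 14 over the PCE series. Of all tested clusters, 14.6% were highest in the control and 10.2%, 9.44% and 8.87% over the ACE series. Over the PCE series 33.5%, 13.6% and 9.79% of them were. On scaled values the member counts were 68, then 17, 4 and 5, then 21, 42 and 20, so the control and PCE at 48 h led on both scales. On deposited values 100 members were lowest in PCE at 72 h, and 56 were on scaled values. The control was lowest for 45 members, or 39 on scaled values. Shares of all tested clusters were not computed for the lowest library or on scaled values, so those counts have no background.

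Profiles of the members fell into groups that were high or low in the same libraries. Members were grouped by the correlation of log2(FPKM + 1) over the 7 libraries, with average linkage cut at r = 0.7. Of 23 groups, 9 held at least 5 members and 149 members in all. The groups were built from these values, so their profiles are descriptions with no test, and a correlation over 7 libraries that include 3 times and the shared control is no sign of shared control of the genes. Among the 15576 pairs of members, r was at least 0.7 in 20.8% (15.2% on scaled values), at most -0.7 in 937 pairs, and at least 0.99 in 17 pairs.

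**Figure D2:**
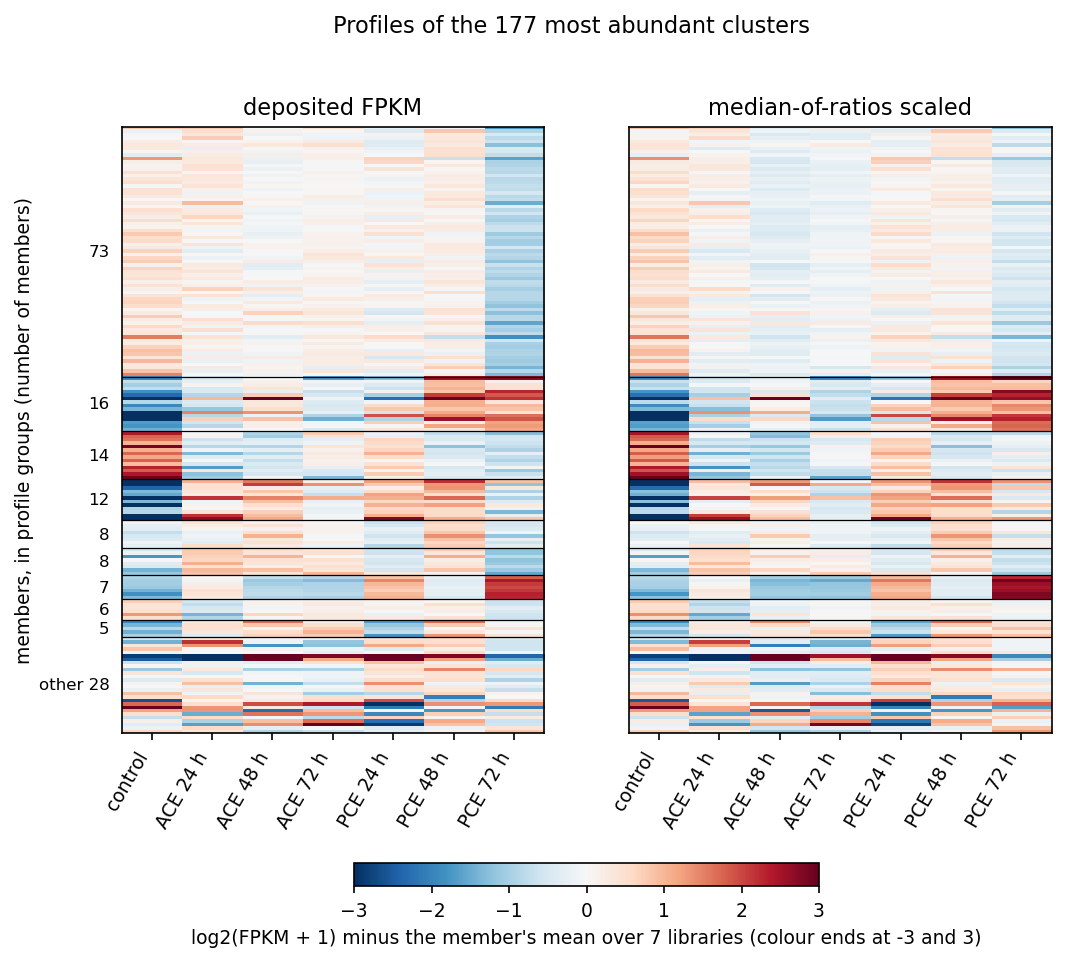
Each row is 1 of the 177 members and each column a library; colour gives log2(FPKM + 1) minus the member's mean over the 7 libraries, on deposited values (left) and median-of-ratios scaled values (right), with the profile groups of at least 5 members set apart by lines and labelled with their size. The 73-member group is palest except in PCE at 72 h on deposited values, a contrast that weakens on scaled values, and the 7-member group is darkest in PCE at 72 h on both.

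The largest group, of 73 members, was lowest in PCE at 72 h for all 73, and 37 of them were highest in the control. Relative to each member's mean, log2(FPKM + 1) averaged 0.40 in the control, -0.91 in PCE at 72 h and 0.002 to 0.19 in the other libraries. The group was loose, with a mean r of 0.77 and a lowest r of 0.15. The member closest to it, Cluster-118330.121060, stood at 3640 FPKM in the control, 3112, 2687 and 3017 FPKM over the ACE series and 3086, 3254 and 1512 FPKM over the PCE series. At 72 h the median PCE minus ACE difference of the group was -0.99 on the log2 scale and all 73 were below 0, while on scaled values it was -0.28 and 59 were below 0. The group held 21.4% of the control and 7.57% of PCE at 72 h. It rested on that library: without PCE at 72 h no more than 18 of the 73 stayed in 1 group, and on scaled values 33 did. Those 33 lay in a scaled group of 37, which was highest in the control for all 37.

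The tightest group was one of 7 very abundant members, which were highest in PCE at 72 h without exception. Their mean pairwise r was 0.98 and the lowest 0.93. They stayed together in each other setting, and at bounds of r = 0.5 and 0.9 they remained a group of 7. Other members joined them on scaled values (14 in all), without PCE at 24 h (8 in all) and without PCE at 72 h (12 in all). Cluster-118330.128768, closest to the group, stood at 10262 FPKM in the control, 26216, 12330 and 11874 FPKM over the ACE series and 40426, 19034 and 87766 FPKM over the PCE series. Cluster-118330.128789, with its values above, belonged to the same group. Within each edge 24 h stood above 48 h, and the edges then parted at 72 h.

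In these 7 members PCE was 1.71-fold ACE at 24 h (median), 1.42-fold at 48 h and 8.15-fold at 72 h, where single members ran from 6.49-fold to 13.2-fold. On scaled values the median at 72 h was 13.3-fold, so the direction of this edge difference did not rest on the scaling. Against the control, PCE at 72 h was 10.9-fold (median; 14.2-fold on scaled values). ACE at 72 h was 1.16-fold the control on deposited values and 0.927-fold on scaled values, where 4 of the 7 lay below it. From 24 to 72 h all 7 were lower in ACE, by a median of -1.21 on the log2 scale, and all 7 were higher in PCE, by 1.12. Together they held 3.11% of the control, 6.28%, 3.29% and 3.43% of ACE, and 7.92%, 3.73% and 23.0% of PCE. With 1 library a group, these differences have no replicate check.

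A group of 16 members, among them Cluster-118330.128325, was lowest in the control for all 16 and high in PCE at 48 and 72 h. The member closest to it, Cluster-118330.127969, stood at 264 FPKM in the control, 494, 1030 and 863 FPKM over the ACE series and 916, 2040 and 2190 FPKM over the PCE series. At 72 h all 16 were higher in PCE than in ACE, by a median of 1.40 on the log2 scale (2.10 on scaled values). The group held 2.96% of the control, 5.12%, 7.79% and 4.93% of ACE, and 3.14%, 17.5% and 19.4% of PCE, of which Cluster-118330.128325 made up the larger part at 48 and 72 h. The 16 were less closely bound than the 7, with a mean r of 0.79, and 8 of them stayed together on scaled values.

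A pair of groups was set apart by the control. The first, of 14 members, was highest in the control for all 14 and held 7.86% of it, against 1.06% to 2.60% of the cut libraries. Its closest member, Cluster-118330.128794, stood at 13549 FPKM in the control, 2828, 3369 and 3620 FPKM over the ACE series and 6866, 3195 and 3022 FPKM over the PCE series. The other, of 12 members, held 0.270% of the control and 1.45% to 3.29% of the cut libraries. Its closest member, Cluster-118330.138393, stood at 140 FPKM in the control, 1333, 1741 and 1157 FPKM over the ACE series and 2531, 2910 and 1543 FPKM over the PCE series. The control was the lowest library for 11 of the 12. On scaled values 10 of the 14 and 10 of the 12 stayed together.

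The remaining groups of at least 5 members held 8, 8, 6 and 5 members. A group of 8 was highest in PCE at 48 h for all 8, and its closest member, Cluster-118330.119485, had 14149 FPKM there and 2452 FPKM in PCE at 72 h. Another 8 were low in PCE at 24 and 72 h and in the control, with Cluster-118330.123424 at 28601 FPKM in ACE at 24 h, 10827 in PCE at 24 h and 6973 in PCE at 72 h. A group of 6 was low in ACE at 24 h and PCE at 72 h, with Cluster-118330.129722 at 1119 and 1110 FPKM there and 2161 in the control. A group of 5 was low in the control and in PCE at 24 h, with Cluster-118330.123726 at 1950 and 2296 FPKM there and 5354 to 9120 FPKM elsewhere. On scaled values 3 of the first 8, 5 of the second 8, 5 of the 6 and all 5 of the last group stayed together. Without PCE at 72 h, 6, 4, 6 and 2 members of these groups did. Of all pairs of members that shared a group on deposited values, 29.3% also shared one on scaled values. The other 28 members lay in groups of fewer than 5.

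**Figure D3:**
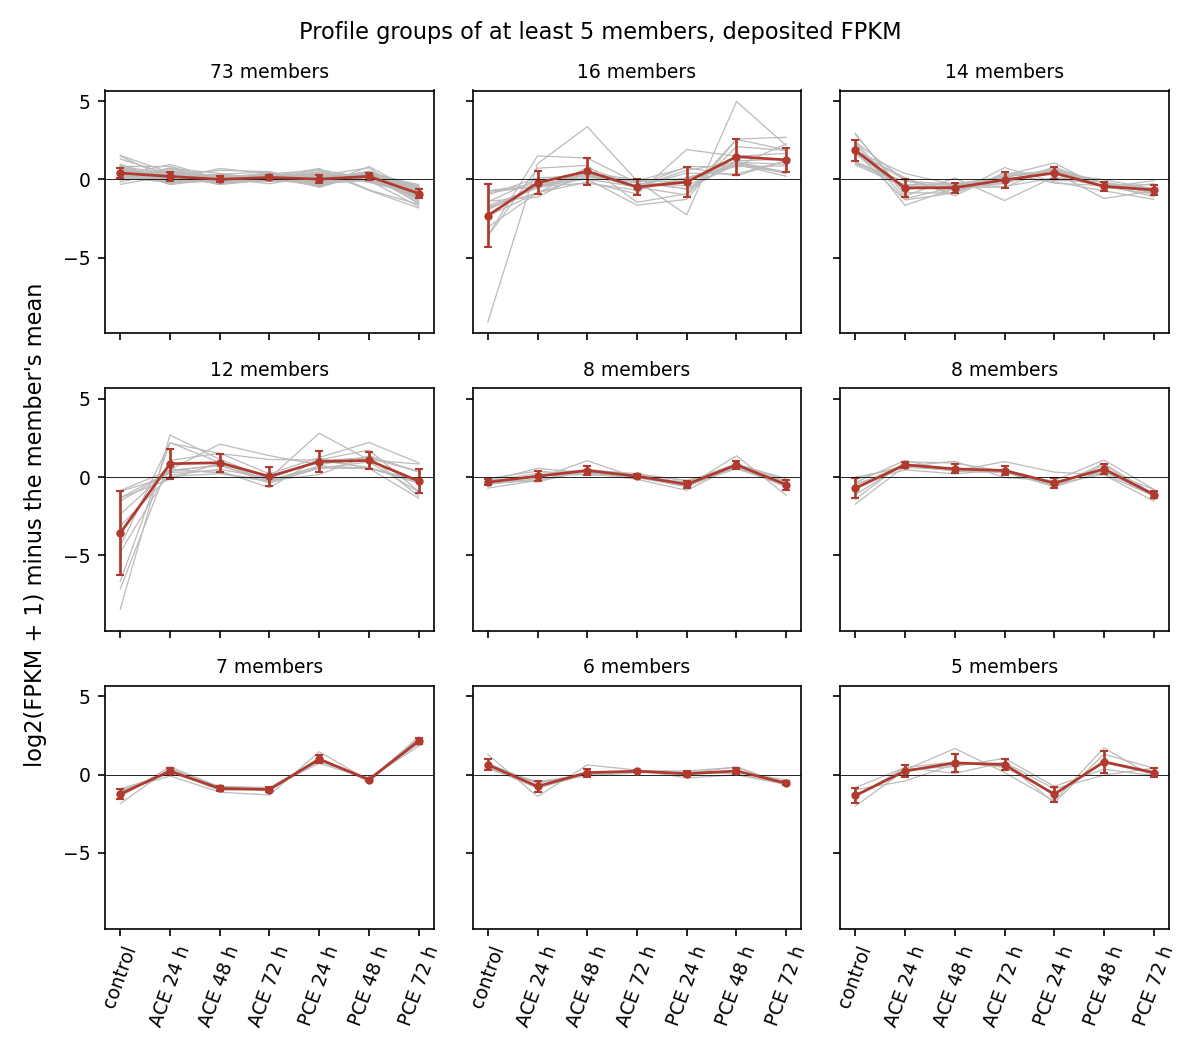
Each panel is a profile group of at least 5 members; grey lines are members, and red points with bars are the mean and SD over members (not over replicates) of log2(FPKM + 1) minus the member's mean, for the 7 libraries on the x axis. The 7-member panel peaks in PCE at 72 h, the 14-member panel in the control, and the 12-member panel is lowest in the control.

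The comparison of the edges asks where posterior and anterior cut tissue differed. Differences of 1 or more in log2(FPKM + 1) were counted. At 24 h, 16 members were higher in PCE, where 34.9% of all tested clusters were, and 24 were lower, where 19.9% were. At 48 h, 11 were higher and 4 lower (background 16.1% and 15.7%). At 72 h, 23 were higher and 57 lower (background 15.3% and 26.1%). As shares of 177 these are 9.04% and 13.6% at 24 h, 6.21% and 2.26% at 48 h, and 13.0% and 32.2% at 72 h, so only the members lower in PCE at 72 h exceeded the background share. That excess depended on the scaling and on the set compared, since 39.2% of the clusters with a mean of 100 to under 1000 FPKM were lower in PCE at 72 h.

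On scaled values, 29 members were higher and 17 lower at 24 h (background 36% and 18.2%), 13 and 3 at 48 h (16.9% and 13.6%), and 37 and 14 at 72 h (19.4% and 20.3%). As shares of the members these were 16.4% and 9.60%, 7.34% and 1.69%, and 20.9% and 7.91%, so of the scaled shares 1, that of members higher at 72 h, lay above its background, by less than 2 points. Of members past the threshold, those higher in PCE made up 40.0%, 73.3% and 28.8% at 24, 48 and 72 h on deposited values, and 63.0%, 81.3% and 72.5% on scaled values. The balance at 24 and 72 h thus turned with the scaling, and that at 48 h did not under this scaling. The median difference of the members was -0.07, 0.24 and -0.81 on deposited values and 0.17, 0.46 and -0.11 on scaled values, where the median of all tested clusters was 0 at each time on deposited values.

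All 23 members higher in PCE at 72 h on deposited values were also higher on scaled values, and they included 11 of the 16-member group and all 7 of the tightest group. Of the 57 that were lower on deposited values, 14 were lower on scaled values, and 33 of the 57 came from the 73-member group. At 24 h the members higher in PCE included 6 of the 14-member group that was highest in the control.

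**Figure D4:**
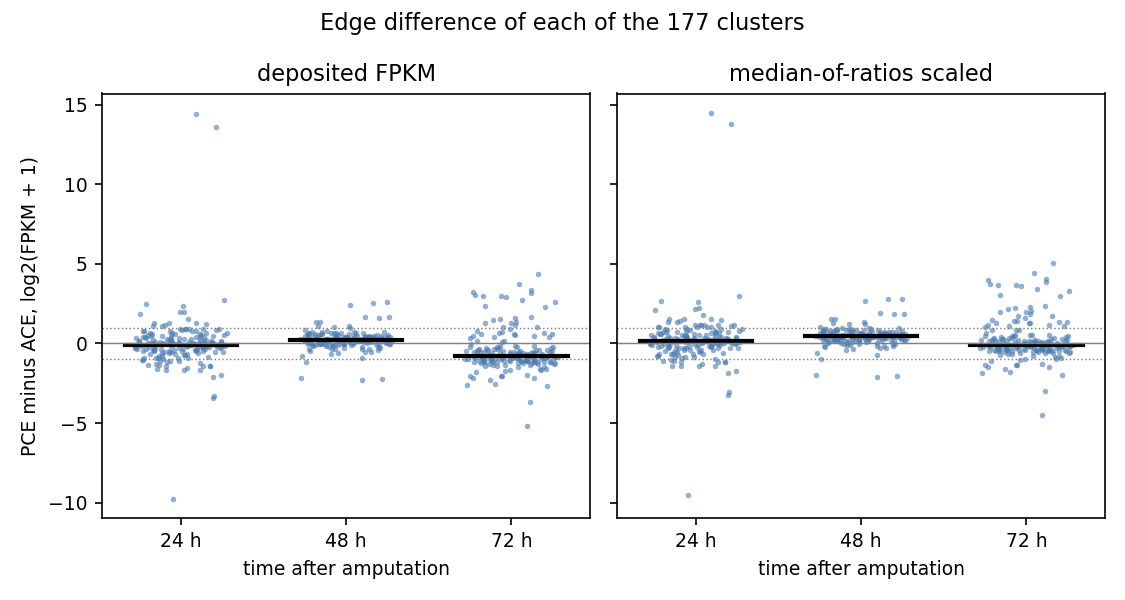
Each point is 1 of the 177 members; the y axis gives PCE minus ACE in log2(FPKM + 1) and the x axis the time after amputation, on deposited (left) and median-of-ratios scaled (right) values. Black bars are medians and dotted lines mark -1 and 1; the median at 72 h lies at -0.81 on the left and -0.11 on the right, and that at 24 h changes sign.

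Few members kept a difference over all 3 times. One member was higher in PCE by at least 1 at every time and 0 were lower, where 1.09% and 2.55% of tested clusters were, and on scaled values 2 were higher and 0 lower (background 1.35% and 1.75%). That member was Cluster-118330.128603, at 107 FPKM in the control, 500, 795 and 473 FPKM over the ACE series and 3381, 2504 and 2852 FPKM over the PCE series. All PCE libraries lay above all ACE libraries, and every cut library lay above the control. Its mean difference between the edges was 2.33 ± 0.88 (SE) in log2(FPKM + 1). Its Benjamini-Hochberg adjusted p in limma was 0.475, which ranged from 0.467 to 0.756 over 13 settings.

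Next by the same rule was Cluster-118330.127969, whose values are given above, with a mean difference of 1.07 ± 0.77 (SE). Among members below ACE at each time, those with the largest smallest difference were Cluster-118330.124936 and Cluster-118330.134405. Cluster-118330.124936 stood at 1984 FPKM in the control, 851, 2336 and 3194 FPKM over the ACE series and 0, 1553 and 1490 FPKM over the PCE series, so its largest difference came from the listed 0. Cluster-118330.134405 stood at 406 FPKM in the control, 161, 1323 and 4332 FPKM over the ACE series and 68.2, 929 and 333 FPKM over the PCE series, with a mean difference of -1.81 ± 0.81 (SE). In all, 24 members had PCE above ACE at each time and 23 had it below, but on scaled values 55 were above and 8 below. The share of all tested clusters with the same sign at each time was not computed, so these counts have no background. In limma over 122784 clusters, 0% were called for the edge at an adjusted p of 0.05, and 0 members were. At an unadjusted p of 0.05, 1 of 177 members and 4396 of all tested clusters passed. The fitted mean-variance trend gave large errors to the most abundant members, as in Cluster-118330.128325 with a difference of 2.01 ± 19.9 (SE). Without the trend 0 members were called for the edge or for time, where 0% of tested clusters were. At an unadjusted p of 0.05 in that fit, 1 member passed for the edge and 2 for time. These are 0.565% and 1.13% of members, where 3.65% and 3.20% of tested clusters passed.

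Over time, the shares of members that differed the same way at both edges from 24 to 72 h lay near the background. From 24 to 72 h, 5 members were higher by at least 1 at both edges and 7 lower, which is 2.82% and 3.95% of members, where 3.74% and 3.49% of tested clusters were, and on scaled values 5 were higher and 6 lower (background 3.82% and 3.3%). From 24 to 48 h, 10 were higher and 9 lower (background 5.75% and 3.33%), and 6 of the 9 lower ones were in the tightest group. On scaled values 8 were higher and 9 lower (background 4.97% and 3.47%). From 48 to 72 h, 1 was higher and 9 were lower (background 2.71% and 4.15%), and on scaled values 1 was higher and 7 were lower (background 2.99% and 3.43%).

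The members named as higher at 72 h were Cluster-118330.134405 and Cluster-118330.124936, both shown above. At both edges they were lowest at 24 h. The members named as lower were Cluster-118330.122426 and Cluster-118330.125709. Cluster-118330.122426 was at 0 in the control, 2267, 769 and 336 FPKM over the ACE series and 2454, 748 and 628 FPKM over the PCE series, and its levels at the edges were closest at 48 h. Cluster-118330.125709 stood at 17421 FPKM in the control, 34563, 3885 and 5760 FPKM over the ACE series and 30120, 23175 and 8889 FPKM over the PCE series, so ACE was already low at 48 h and PCE was not. In limma 0% of clusters and 0 members were called for 72 against 24 h, and at an unadjusted p of 0.05, 2 of 177 members and 3581 of all tested clusters passed. Without the ACE 24 h library 5 members were called, where 20.8% of all tested clusters were.

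The edges went in opposite directions in 14 members. From 24 to 72 h, 10 members were lower by at least 1 in ACE and higher by at least 1 in PCE, and 4 the other way. That is 7.91% of members, against a background of 4.93%. On scaled values 15 members did so (13 and 2), against a background of 4.6%, and under quantile normalization 7 did (3.95%), against a background of 5.11%. Of the 10, 5 belonged to the tightest group and 4 to the 16-member group, with Cluster-118330.128325 among them. The 4 included Cluster-118330.113308, whose ACE 24 h value was 0. Whether the change over time differed between the edges was not tested, since each edge had 1 library a time. The mean edge difference over the 3 times was tested in limma and called in none of the members, as given above. That mean does not bear on opposite changes over time. Its SE was also large, at 19.9 for Cluster-118330.128325 and 9.78 for Cluster-118330.128768 of the tightest group.

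The comparison of the cut edges with the control asks how cut tissue differed from the control fin. All 6 cut libraries are set against the same control library, so they share its error. In 17 members each of the 6 was higher than the control by at least 1 on the log2 scale, where 1.98% of tested clusters were, and in 10 each was lower, where 5.7% were. As shares of the members these are 9.60% and 5.65%, and among clusters with a mean of 100 to under 1000 FPKM 16% were higher and 6.01% lower. On scaled values 15 members were higher and 11 lower (background 1.83% and 6.53%), with 14 and 10 found on both scales. Of the 17, 8 came from the 16-member group and 7 from the 12-member group, and of the 10, 8 came from the 14-member group.

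Among members above the control in all 6 cut libraries, those with the largest smallest difference were Cluster-118330.122426, at 0 in the control, and Cluster-118330.128735. Cluster-118330.128735 stood at 61.0 FPKM in the control, 18424, 25371 and 10127 FPKM over the ACE series and 20891, 40806 and 16458 FPKM over the PCE series. The lowest cut library was thus above 10000 FPKM and the control below 100. Both edges were highest at 48 h and lowest at 72 h.

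Among members below the control in all 6, those with the largest smallest difference were Cluster-118330.128830 and Cluster-118330.128799. Cluster-118330.128830 stood at 4557 FPKM in the control, 285, 633 and 232 FPKM over the ACE series and 663, 444 and 470 FPKM over the PCE series, a mean difference of -3.42 ± 0.66 (SE) on the log2 scale. Cluster-118330.128799 stood at 14518 FPKM in the control, 1088, 1074 and 2554 FPKM over the ACE series and 2702, 844 and 1184 FPKM over the PCE series, a mean difference of -3.36 ± 0.86 (SE). In both, no cut library came near the control, and the order of the cut libraries differed.

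Whether limma called any of these depended on the filter. With a minimum mean FPKM of 1, 0% of clusters and 0 members were called against the control, and at an unadjusted p of 0.05, 26 of 177 members and 9444 of all tested clusters passed. With a minimum mean of 5, 5 members were called, all higher in the cut libraries, where 0.726% of the 37170 clusters were. With no minimum 8 were called, where 6.19% were, and without the ACE 24 h library 12 were called, where 21.6% were. The 5, of which 3 are named here for this call after their values were seen, were Cluster-118330.122426, Cluster-118330.128735, Cluster-118330.130783, Cluster-118330.110487 and Cluster-118330.170096. At that minimum the limma Benjamini-Hochberg adjusted p of Cluster-118330.122426 was 0.00304, within a range of 0.00304 to 0.607 over the 13 settings. That of Cluster-118330.128735 was 0.0359, within a range of 0.00146 to 0.826 (limma, Benjamini-Hochberg). With a minimum of 5 and without PCE at 24 h, a setting added after the data were seen, 0 members were called. The fit rests on 1 control library, which was assumed to vary as the cut libraries did. For Cluster-118330.122426 and Cluster-118330.170096 the value in that library was an exact 0, which can be a failed estimate. The calls of both rest on that value.

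Cluster-118330.130783 stood at 10.3 FPKM in the control, 5225, 3275 and 2520 FPKM over the ACE series and 2466, 3834 and 611 FPKM over the PCE series. Cluster-118330.110487 stood at 29.9 FPKM in the control, 3046, 1267 and 632 FPKM over the ACE series and 1378, 1007 and 538 FPKM over the PCE series. In both the control was lowest and ACE at 24 h highest.

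Single cut libraries differed from the control to unequal extents, and the balance of higher and lower members depended on the scaling. On deposited values, in ACE 40 members were higher and 31 lower at 24 h, 44 and 24 at 48 h, and 32 and 19 at 72 h. In PCE 40 were higher and 22 lower at 24 h, 49 and 22 at 48 h, and 38 and 73 at 72 h. The background shares of higher and lower clusters were 17.8% and 18% for ACE at 24 h, 19.9% and 16.8% at 48 h, 16.6% and 12.7% at 72 h, and 37.4% and 22.6%, 24.5% and 21.3%, and 19.6% and 25% for PCE. On scaled values the counts of higher and lower members were 37 and 39, 35 and 37, and 28 and 27 over the ACE series, and 41 and 21, 47 and 26, and 44 and 45 over the PCE series. The scaled background shares were 16.2% and 19.1%, 16.9% and 18.8%, and 13.6% and 14.9% for ACE, and 37.6% and 22.5%, 23.6% and 21.9%, and 22.1% and 23.2% for PCE. Higher members thus outnumbered lower ones in each ACE library on deposited values and in 1 of 3 on scaled values. The excess of lower members in PCE at 72 h was likewise 73 to 38 on deposited values and 45 to 44 on scaled values. All tested clusters also leaned higher in ACE at 48 and 72 h on deposited values. They leaned lower in each ACE library on scaled values and in PCE at 72 h on both scales. In PCE at 24 h the 40 higher members were a smaller share than the background of 37.4%.

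Across members, the libraries were unequally alike. Over the 177 members and in log2(FPKM + 1), r was lowest between the control and PCE at 48 h (0.35) and highest between ACE at 48 h and PCE at 48 h (0.93). These values describe 21 pairs of libraries, are across clusters and not across replicates, and carry no p.

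The members also shared a feature the rule did not use, the numbers in their identifiers. All 177 had the same first number, against 58.6% of all clusters, 62.0% of the tested ones and 99.3% of those with a mean of 100 to under 1000 FPKM. Their second numbers ran from 107213 to 176783 with quartiles of 127915, 128799 and 129240. Among clusters with the same first number, the quartiles were 120132, 128761 and 134584 at a mean of 100 to under 1000 FPKM. For the tested clusters they were 83221, 128101 and 171432. The median was thus close in all these sets and not particular to the members, whose middle spanned the narrowest band. Of the members, 145 fell in a single bin of 10000 numbers. Together with the bin above it, it held 94.9% of the members. The same pair of bins held 54.8% of the clusters with a mean of 100 to under 1000 FPKM and that first number. Of the tested clusters with that first number it held 14.6%. The bin of 145 members held 61.6% of the summed mean FPKM of clusters with that first number. The members in it, chosen for a high mean, raise that share by construction, so it is no separate feature. In the bins on either side the median of the clusters' mean FPKM was lower, at 0.833 and 1.17 against 1.56 FPKM. The sources used here do not say what these numbers stand for.

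**Figure D5:**
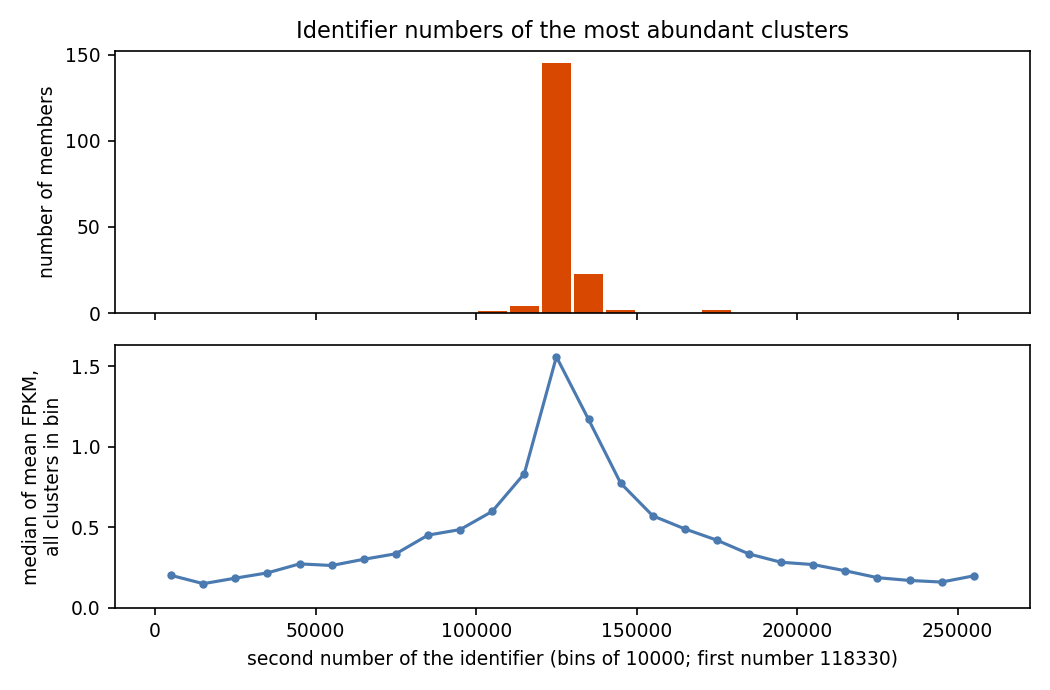
Bars (top) give the number of the 177 members, and points (bottom) the median of the mean FPKM of all clusters, in bins of 10000 of the second identifier number (x axis), among clusters with the members' first number. One bin holds 145 members and also has the highest median, 1.56 FPKM.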

How the data were processed

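RNA of 7 libraries of zebrafish tail fin was extracted with Trizol and made into libraries with an NEBNext Ultra kit, per the labels' protocols. The authors deposited 1 table of FPKM values, with a column per library. The tools, per the submitters' processing notes, which give no order, were edgeR, HTSeq 0.9.1 and HISAT2 2.0.5. Genome build, annotation and the making of the clusters: not given in the sources used here.

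Libraries were grouped by their titles, 1 per group. Members were clusters with a mean of at least 1000 FPKM. The members and lists were chosen with earlier results of these data known. Values were analysed as log2(FPKM + 1), which understates differences of low clusters, in R 4.3.3 with limma 3.58.1 (mean-variance trend, Benjamini-Hochberg adjustment at 0.05) for the clusters whose mean FPKM reached 1. The edge and the 72 against 24 h difference came from 1 fit of the 6 cut libraries with edge and time as factors, and the control comparison from all 7 libraries. In both fits edge and time were additive among the cut libraries. A cluster's own error was therefore how far its edge difference varied between times. Limma then drew that error toward the mean-variance trend over all clusters tested. The p-values and SEs rest on this moderated error and not on a spread between replicates. A cluster whose edge difference changed with time thus adds to its own error. Single-time differences were counted at 1 or more on the log2 scale. Scripts were tested on simulated data. Median-of-ratios factors used clusters above 0 in every library. Other steps ran in Python 3.11.15 with matplotlib 3.10.9, scipy 1.17.1, pandas 2.3.3 and numpy 2.4.6.

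Named clusters were the 2 with the highest means, the 2 on either side of the threshold, the member closest to each profile group, and, per comparison and direction, the 2 with the largest smallest difference over all pairs among members of 1 sign. Other settings were median-of-ratios scaling, quantile normalization, other thresholds, filters, pseudocounts and member rules, other correlation bounds, and leaving out each library. The table is in FPKM, so no count test was run, and neither depth nor counting error is known.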

Additional observations from a re-analysis of the deposited data

Results flagged for a closer look

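On deposited values, the edge difference of the members pointed different ways at different times. Of members differing by at least 1 on the log2 scale, 40.0% were higher in PCE at 24 h, 73.3% at 48 h and 28.8% at 72 h. The median PCE minus ACE difference was 0.24 at 48 h and -0.81 at 72 h. On median-of-ratios values the shares were 63.0%, 81.3% and 72.5%, all the same way. From 24 to 72 h, 14 members differed by at least 1 in opposite directions at the edges. The mean edge difference and the mean 72 against 24 h difference were tested in limma over the 6 cut libraries, with 0 members called (1 and 2 passed an unadjusted p of 0.05). Whether the edge difference itself differed between times was not tested, since each group held 1 library. No group had enough libraries for a look at a library far from the rest of its group.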

How the results depend on the processing

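No paired analysis was possible because each group held 1 library and the labels link no libraries by fish. The edges were already matched by time in the fit. Under median-of-ratios scaling the share of differing members higher in PCE turned to 63.0% at 24 h and 72.5% at 72 h and the median at 24 h to 0.17, and under quantile normalization the share was 45.5% at 48 h and 53.7% at 72 h. Members higher in PCE at every time (1) numbered 2 scaled, 7 at 1.5-fold, 3 with members from a mean of 500 FPKM, 0 from 2000 FPKM, 0 with members of 1000 FPKM in at least 4 libraries, and 1 to 8 without a library (8 without either 24 h library, 6 without either 48 h library). Those lower (0) numbered 1 at 1.5-fold, 3 from 500 FPKM and 0 to 12 without a library (12 without either 48 h library, 2 without either 24 h library). Members higher at 72 than 24 h at both edges (5) numbered 10 from 500 FPKM, 0 from 2000 FPKM, 3 under the 4-library rule and 5 to 22 without a library (22 without ACE 24 or 72 h, 13 without PCE 24 or 72 h). Those lower (7) numbered 2 under quantile normalization, 14 at 1.5-fold, 16 from 500 FPKM and 7 to 54 without a library (54 without ACE 24 or 72 h, 21 without PCE 24 or 72 h). Leaving out a library removes a condition that had to be passed, which by construction raises these counts. With 1 edge left for 72 against 24 h, the background was 38.5% lower and 16.9% higher in PCE. In ACE it was 12.4% lower and 17.2% higher. For the 1.5-fold threshold, the other member rules and the other counts past the log2 threshold without a library, no background was computed. Members above the control in all cut libraries (17) numbered 33 from 500 FPKM, 11 from 2000 FPKM and 17 to 20 without a library. Those below (10) numbered 20 at 1.5-fold, 18 from 500 FPKM, 3 from 2000 FPKM, 4 under the 4-library rule and 10 to 14 without a library. The control share of 51.0% was 55.0% from 500 FPKM, 45.3% from 2000 FPKM, 49.6% under the 4-library rule, 50.7% with members chosen on scaled means, 64.2% of clusters above 0 in every library, and 50.9% to 51.3% without a library. The mean ACE share was 56.2%, 48.5% and 63.9% from 500 FPKM, from 2000 FPKM and of clusters above 0 everywhere, and 51.4% to 54.2% without a library. The mean PCE share was 72.3% of clusters above 0 everywhere and 48.1% to 61.1% without a library. Limma called 5 members against the control with a minimum mean of 5, 8 with none, and 0 to 12 without a library (12 without ACE 24 h); for time it called 0 to 5 (5 without ACE 24 h) and for the edge 0 to 0. The largest profile group (73) had 16 members at r = 0.9, 37 scaled, and 32 without PCE 72 h, a setting added after the data were seen. The cause of the changes was otherwise not tested. The table gives neither depth nor replicates, so small differences of single members cannot be told from noise, and large ones have no replicate check either.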
